A study of Mus musculus with 8 samples.

Results

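The genes described here are Nlrc5 and the MHC class I presentation genes H2-K1, H2-D1, H2-M3, B2m, Tap1, Tap2, Tapbp, Psmb8 and Psmb9. Their members are all probe sets whose only gene symbol in the platform annotation is 1 of these 10 genes, which gave 27 of the 45037 probe sets other than controls. A probe set is the group of short probes that reads 1 transcript on the array. All 10 genes were found, with 9 probe sets for H2-D1, 4 each for H2-K1 and Tap1, 2 each for B2m, Tapbp and Psmb8, and 1 each for the rest. A further 3 probe sets carry a member among several symbols and were left out.

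The 8 Affymetrix arrays hold RNA of 4 L-GMP and 4 GMP samples, each group lettered A to D. L-GMPs are cells of the GMP (granulocyte-macrophage progenitor) gate sorted from the bone marrow of leukaemic mice, with the genotype label HoxA9+Meis1 AML, and GMPs are the same gate from marrow labelled Normal. How the leukaemia was made, the strain, age and sex of the mice, and whether marrows were pooled are not given in the sources used here. No source says whether replicate arrays were separate mice. The p-values therefore reflect array-to-array spread within a group, some or all of which may be technical. The comparison asks how leukaemic and normal cells of this gate differ.

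MHC class I molecules show peptides from inside the cell to CD8 T cells. The proteasome, with the inducible catalytic subunits that Psmb8 and Psmb9 encode, cuts proteins into peptides. The transporter of TAP1 and TAP2 carries these into the endoplasmic reticulum, where tapasin (Tapbp) helps to load them onto a heavy chain paired with beta-2 microglobulin (B2m). NLRC5 is a nuclear transactivator of the NLR family that acts at class I promoters together with RFX, CREB/ATF and NF-Y proteins. These occupy neighbouring promoter elements called the X1, X2 and Y boxes. Haematopoietic cells express class I widely, and interferon raises most of these genes.

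Promoters are shown first because 4 members share this arrangement of letters. Of the 10 genes, 8 had a window in the RefSeq promoter table of GRCm38.p6, which runs from 250 bases before the start site to 50 after it. Nlrc5 and Tap2 had none. Stretches from the 4 genes are printed 5′ to 3′, with capitals for TGACG, the core of an X2 box, and for ATTGG, the reverse of CCAAT, the core of a Y box.
H2-K1: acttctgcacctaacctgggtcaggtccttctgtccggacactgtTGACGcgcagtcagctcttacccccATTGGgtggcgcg
H2-D1: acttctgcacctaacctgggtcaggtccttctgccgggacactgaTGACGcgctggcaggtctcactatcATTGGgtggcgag
H2-M3: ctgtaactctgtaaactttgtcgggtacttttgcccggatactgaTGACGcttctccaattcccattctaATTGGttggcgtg
B2m: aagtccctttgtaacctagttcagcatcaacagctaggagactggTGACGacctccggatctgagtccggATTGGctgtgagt
The H2-K1 stretch lies on the minus strand at chr17:34000351-34000433, and the others lie on the plus strand, H2-D1 at chr17:35262948-35263030, H2-M3 at chr17:37270143-37270225 and B2m at chr2:122147564-122147646. All lie upstream of the start site. Each has exactly 20 bases between the 2 cores. H2-K1 and H2-D1 were identical at 72 of these 83 bases (86.7%), whereas B2m and H2-D1 were identical at 39 (47%).

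That spaced pair of letters was searched on both strands after the sequences had been seen. Its presence in these 4 was therefore fixed in advance and tests nothing. It occurred in 27 of 27025 genes with a window (0.0999%), these 4 among them. It was absent from the windows of Tap1, Tapbp, Psmb8 and Psmb9. It was also absent from the 11 windows of other class I heavy chains, the 9 of class I-like molecules and the 10 of class II genes. The single cores are common: CCAAT occurred in 41.1% of genes and TGACG in 23%. Tap1 and Psmb9 are neighbours read in opposite directions, and their windows overlap by 275 of 300 bases. This shared stretch holds a TGACG, printed as the Tap1 strand reads it at chr17:34187425-34187507, with that core in capitals.
Tap1 and Psmb9: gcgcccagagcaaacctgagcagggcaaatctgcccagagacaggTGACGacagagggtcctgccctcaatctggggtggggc
In RefSeq order the genes Psmb9, Tap1, Psmb8 and Tap2 follow each other with no other protein-coding gene of that table between. The interferon-stimulated response element, searched as GAAA, any 2 bases and GAAA, matched only the B2m window among the 8 (3.99% of all genes). A gamma-activated site, searched as TTC, any 3 bases and GAA, matched H2-M3 and Psmb8 (9.55% of all genes). The NF-kB letters, GGG, any 5 bases and CC, matched 6 of the 8 windows and 53.5% of all genes. A match of letters is a description and not a bound site.

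**Figure D1:**
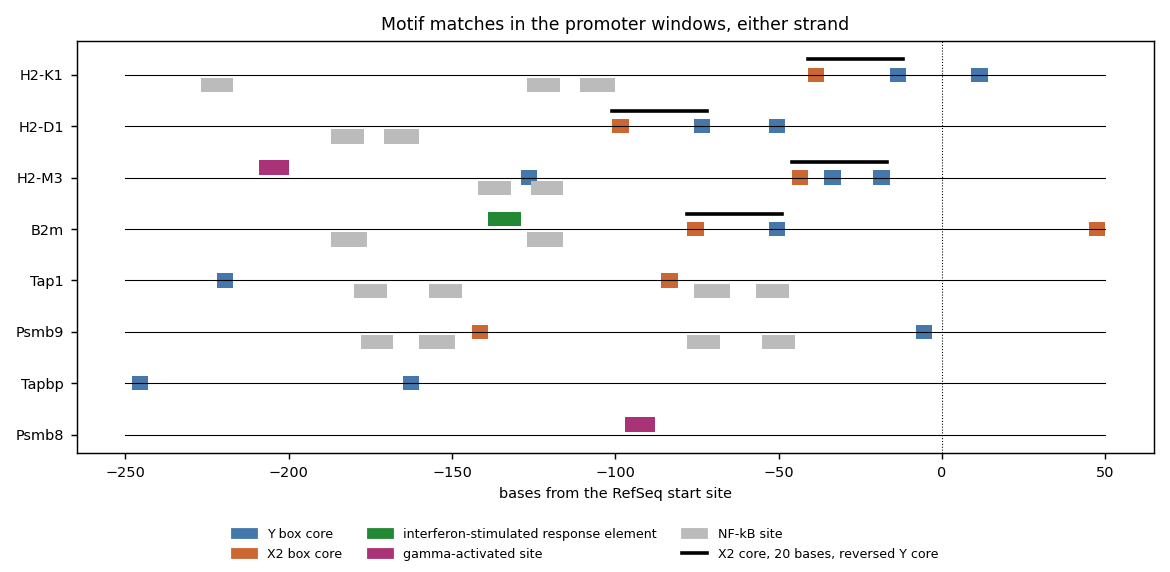
Motif matches on either strand in the promoter windows of 8 member genes, by distance in bases from the RefSeq start site; coloured boxes are the searched motifs and the black bar marks the X2 core and reversed Y core with 20 bases between. The bar appears for H2-K1, H2-D1, H2-M3 and B2m, and the TGACG boxes of Tap1 and Psmb9 are the same bases seen from both start sites.

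Values are log2 RMA intensities, the authors' background-corrected and normalized signals. A probe set is called higher or lower where limma's moderated test, adjusted over all 45037 probe sets, gave an adjusted p under 0.05. Over the whole array 10.9% of probe sets were called, 3.89% higher and 7.03% lower in L-GMPs. The upper quartile of log2 intensity was 7.39 to 7.46 per array, the median 5.24 to 5.49 and the lower quartile 3.65 to 3.75. Of the genes in the leukaemia's name, the Hoxa9 probe sets changed by 4.82 and by -6.66 and the 3 Meis1 probe sets by -3.05 to -1.47. No source used here says whether these probe sets read endogenous or introduced transcripts, so they settle nothing about the labels. GMP replicate D stood apart in RNA quality controls, with a Gapdh signal from the 3′ end above that from the 5′ end by 2.74 on the log2 scale against 1.24 to 1.76 on the other 7 arrays. All 9 measured markers of the sorted population had group means above the upper quartile of every array, among them Mpo (myeloperoxidase).

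Nlrc5, H2-M3, Tap2, Psmb9 and at least 1 probe set each of H2-D1, H2-K1 and Tap1 were higher in L-GMPs. Of the 27 member probe sets, 12 (44.4%) were called higher and 0 lower, beside 3.89% of all probe sets called higher. These 12 came from 7 genes: Nlrc5, H2-D1, H2-K1, H2-M3, Tap1, Tap2 and Psmb9. The 9 H2-D1 probe sets gave 5 of the calls and the 4 H2-K1 probe sets 2. Most of these may read shared sequences, so shares of probe sets may count 1 signal more than once. None of the B2m, Tapbp and Psmb8 probe sets passed. The change was above 0 in 25 of 27, and its median over the 27 was 0.31, against 0.00 over all probe sets. In 16 members (59.3%) every L-GMP array lay above every GMP array, as in 7.38% of all probe sets. The 22 members whose mean lay above the median of every array held all 12 calls (54.5%, against 6.5% of all such probe sets), and the 5 dimmer members held 0.

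**Figure D2:**
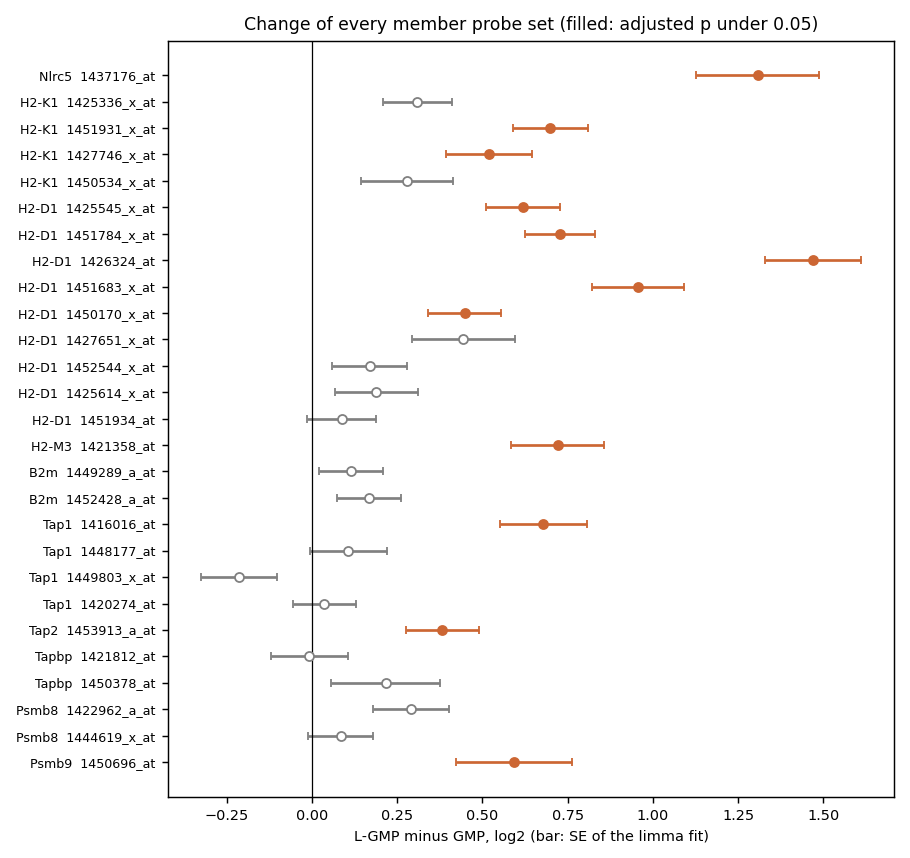
Log2 change (L-GMP minus GMP) of each of the 27 member probe sets, bars giving its standard error from limma; filled points passed an adjusted p of 0.05. All 12 filled points lie to the right of 0, from 0.38 for Tap2 to 1.47 for an H2-D1 probe set.

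Nlrc5 had 1 probe set, 1437176_at. It read 9.49, 9.64, 9.17 and 9.75 in L-GMP replicates A to D and 7.76, 8.15, 8.37 and 8.54 in GMP replicates A to D. Every L-GMP array was above every GMP array, and the lowest GMP was replicate A. The means were 9.51 ± 0.25 and 8.20 ± 0.34 (SD, n = 4 each), a rise of 1.31 (SE 0.18, 2.47-fold, adjusted p = 0.00124 by limma). Its change was 1.16 to 1.45 over all alternatives. It was called under 21 of 22, and lost its call under limma's treat at a fold of 1.5 (adjusted p = 0.0666). Treat tests for a change beyond that fold, which is a different question. It gave the upper end of every adjusted p range over all alternatives printed below.

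Relatives and partners of NLRC5 were measured beside it. Ciita, the class II transactivator of the same family, read 4.62 ± 0.13 in L-GMPs and 4.33 ± 0.15 in GMPs (SD, n = 4 each), a change of 0.29 that did not pass (adjusted p = 0.143). Ciita lay below the median of every array in both groups. Beside 6.87% of all genes called lower and 4.33% higher, 1 of 4 measured NLRC and CIITA relatives was lower and 0 higher. It was Nod1, a cytosolic sensor of bacterial peptidoglycan, at 6.99 ± 0.06 in L-GMPs and 7.58 ± 0.22 in GMPs (SD, n = 4 each), which fell by 0.59 (SE 0.12, adjusted p = 0.0127). This call was lost when L-GMP B and GMP D were both left out (0.0723, and 0.00205 to 1 over all alternatives). Of 9 measured RFX, NF-Y and CREB partners, 0 passed. Rfx5, the RFX subunit with the largest change, had -0.31 (SE 0.11, adjusted p = 0.117).

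H2-D1, a classical heavy chain, rose in 5 of its 9 probe sets. The brightest, 1425545_x_at, read 11.98, 12.06, 12.06 and 12.34 in L-GMPs against 11.47, 11.46, 11.56 and 11.47 in GMPs. No GMP array reached the lowest L-GMP array. The change was 0.62 (SE 0.11, 1.54-fold, adjusted p = 0.0048 by limma). In 1426324_at the L-GMP values were 11.58, 11.51, 11.61 and 11.90 and the GMP values 9.96, 10.03, 10.50 and 10.22. This probe set had the largest change of all 27, 1.47 (SE 0.14, 2.77-fold, adjusted p = 9.93e-05), and was called under all 20 alternatives that gave it a value.

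The H2-D1 probe sets thus gave unequal sizes. The gap between 1426324_at and the brightest probe set was smaller in L-GMPs by 0.85 (exact permutation test over the 8 arrays, 2-sided p = 0.0286, the smallest that 4 against 4 can give). As 1426324_at was picked for its largest change on these same arrays, no conclusion is drawn from this p. Of 9 such differences between features, here and below, 8 had this p (0.0322 adjusted over the 9). All 9 were chosen after values were seen, which limits each of these p-values. Of the 13 probe sets of H2-D1 and H2-K1, all except 1426324_at and 1451934_at carry the suffix _x_at, which marks probe sets with probes that can also bind other sequences. Class I genes are near copies of each other and differ between mouse strains, so single values of these probe sets are uncertain as to gene. The part of strain differences in the values was not tested.

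Of the other H2-D1 probe sets, 1451784_x_at rose by 0.73 (SE 0.10), with L-GMPs at 11.70 to 12.01 and GMPs at 11.06 to 11.08. A rise of 0.96 (SE 0.14) was found in 1451683_x_at, with GMPs at 7.69 to 8.23 and L-GMPs at 8.87 to 9.06. For 1450170_x_at the change was 0.45 (SE 0.11, adjusted p = 0.0237), and its call was lost when L-GMP A, L-GMP C or GMP B was left out (0.0598 at most, and 0.00461 to 1 over all alternatives). The remaining 4 changed by 0.09 to 0.44 and did not pass, with overlapping groups. The dimmest, 1451934_at, read 3.43 and 3.34 on average, below the lower quartile of every array.

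H2-K1, the other classical heavy chain named here, rose in 2 of 4 probe sets. In 1451931_x_at the L-GMP arrays read 11.94, 11.94, 11.95 and 12.15, and the GMP arrays 11.10, 11.31, 11.38 and 11.40. All L-GMP arrays were higher, replicate D most. The rise was 0.70 (SE 0.11, 1.62-fold, adjusted p = 0.00262). A smaller rise of 0.52 (SE 0.13, adjusted p = 0.0261) was found in 1427746_x_at, a call that ended when replicate B or D of either group was left out (0.077 at most, and 0.00725 to 1 over all alternatives). The brightest H2-K1 probe set, 1425336_x_at, read 12.20 to 12.41 in L-GMPs and 11.84 to 12.07 in GMPs. Its groups did not overlap, but the change of 0.31 (SE 0.10) did not pass (adjusted p = 0.0801). It passed after centring on the array median, with log2(intensity + 16), with a trended prior and in the mean of the 4 probe sets. The fourth, 1450534_x_at, changed by 0.28 (adjusted p = 0.232), with overlapping groups.

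H2-M3, a non-classical heavy chain that presents N-formylated peptides, read 10.27, 10.25, 10.60 and 10.60 in L-GMPs and 9.42, 9.80, 9.81 and 9.81 in GMPs. Every L-GMP array was higher, and GMP replicate A lay below the other 3 GMP arrays. The rise was 0.72 (SE 0.14, 1.65-fold, adjusted p = 0.00768). With GMP replicates A and D both left out the adjusted p was 0.0532 (0.00192 to 1 over all alternatives).

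Other class I heavy chains were measured less fully. Of 20 listed, 8 had a single-symbol probe set, and 3 lay below the lower quartile in both groups. Of the 8, 1 was higher and 1 lower, beside 4.33% and 6.87% of all genes. H2-Q5, annotated to the Q region, read 7.97, 8.09, 8.24 and 8.20 in L-GMPs and 5.74, 6.27, 6.65 and 6.34 in GMPs. This rise of 1.87 (SE 0.17, 3.67-fold, adjusted p = 7.3e-05) exceeded that of every member probe set, though the Q genes are near copies and the gene is uncertain. In the mean of the H2-Q5 probe sets the rise was 1.05, below that of Nlrc5. H2-T24, at 7.47 ± 0.12 in L-GMPs and 7.92 ± 0.08 in GMPs (SD, n = 4 each), fell by 0.45 (SE 0.10, adjusted p = 0.02). The H2-T24 call was lost after centring on the median (0.0848) and without GMP replicate B (0.0673, and 0.00833 to 1 over all alternatives).

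B2m, the light chain of every class I molecule here, did not pass in either probe set. The brighter, 1449289_a_at, read 13.12, 13.10, 13.08 and 13.11 in L-GMPs and 12.85, 13.02, 13.01 and 13.07 in GMPs. The groups did not overlap, by a margin of about the last digit. The change was 0.11 (95% confidence interval -0.09 to 0.32, adjusted p = 0.497), and that of 1452428_a_at was 0.17 (-0.04 to 0.38, adjusted p = 0.305). The heavy chains changed more than B2m in the brightest probe set of each. Against B2m, H2-D1 was higher in L-GMPs by 0.51, H2-M3 by 0.61 and H2-K1 by 0.19, each with an exact permutation p of 0.0286 (2-sided). These probe sets differ in brightness, with L-GMP means of 13.10 for B2m, 12.28 for H2-K1, 12.11 for H2-D1 and 10.43 for H2-M3. The part of brightness in these differences was not tested.

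**Figure D3:**
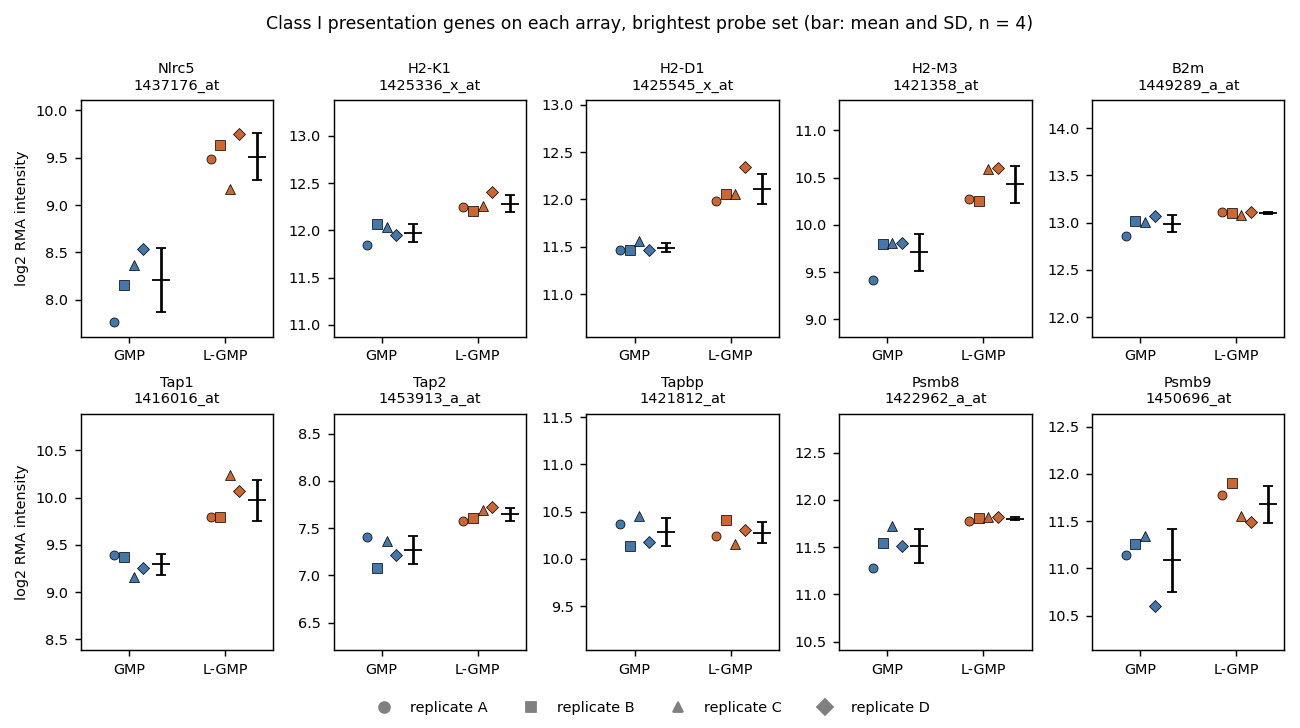
Log2 RMA intensity of the brightest probe set of each of the 10 genes on every array, GMP in blue and L-GMP in orange, with a marker shape for each replicate letter and the mean and SD of 4 arrays beside; all panels span the same log2 range. The groups are furthest apart for Nlrc5, where L-GMP arrays lie between 9.17 and 9.75 and GMP arrays between 7.76 and 8.54, and they overlap for Tapbp.

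Tap1, which encodes a subunit of the peptide transporter, read 9.79, 9.80, 10.24 and 10.07 in L-GMPs and 9.39, 9.37, 9.16 and 9.25 in GMPs in its brightest probe set, 1416016_at. All L-GMP arrays were higher, by 0.68 on average (SE 0.13, 1.60-fold, adjusted p = 0.00732). The other 3 Tap1 probe sets had changes of -0.21 to 0.11 that did not pass. All 3 were much dimmer than 1416016_at, whose mean over all arrays was 9.63. The means of 1420274_at (2.39) and 1449803_x_at (3.35) were under 3.65, the smallest lower quartile found on an array. That of 1448177_at was 5.85. Averaging all 4 lowered the change to 0.15, which did not pass. This average gives the dim probe sets equal weight, so no conclusion on the rise is drawn from it. Tap2 read 7.57, 7.61, 7.69 and 7.72 in L-GMPs against 7.41, 7.07, 7.36 and 7.22 in GMPs. The Tap2 rise of 0.38 (SE 0.11, adjusted p = 0.0464) was close to the threshold. Leaving out any 1 array other than GMP replicate A ended the call (0.133 at most, and 0.0194 to 1 over all alternatives).

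Tapbp, which encodes tapasin, read 10.25, 10.41, 10.15 and 10.30 in L-GMPs and 10.37, 10.14, 10.46 and 10.18 in GMPs. These groups overlapped, with a change of -0.01 (95% confidence interval -0.26 to 0.24, adjusted p = 0.977). The sign of so small a change turned under several alternatives. Its other probe set changed by 0.22 (-0.14 to 0.57, adjusted p = 0.443). The difference between Tap1 and Tapbp was larger in L-GMPs by 0.69 (exact permutation p = 0.0286, 2-sided). Beside 4.33% of all genes called higher, 1 of 9 measured genes of peptide loading and trimming beyond the members was higher and 0 lower. It was Tapbpl, the tapasin relative TAPBPR that edits peptides, at 7.71 to 7.78 in L-GMPs and 7.09 to 7.32 in GMPs (rise 0.54, SE 0.10, adjusted p = 0.00522). In the mean of the Tapbpl probe sets the change was 0.35 and did not pass (adjusted p = 0.0637, and 0.00132 to 1 over all alternatives).

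Psmb9, an inducible catalytic subunit, read 11.77, 11.90, 11.55 and 11.49 in L-GMPs and 11.14, 11.25, 11.34 and 10.60 in GMPs. All L-GMP arrays were higher, and the lowest value was that of GMP replicate D, the array with the high Gapdh 3′ to 5′ difference, whose part in the result was not tested. The rise was 0.59 (SE 0.17, 1.51-fold) with an adjusted p of 0.04997, at the threshold. It lost its call without each single array in turn (0.0538 to 0.117, and 0.0168 to 1 over all alternatives), and its change without GMP replicate D was 0.43.

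Psmb8, the other inducible subunit, read 11.78, 11.80, 11.81 and 11.81 in L-GMPs and 11.28, 11.54, 11.72 and 11.51 in GMPs in its brighter probe set. The groups did not overlap, but the change of 0.29 (95% confidence interval 0.04 to 0.54) did not pass (adjusted p = 0.132). The difference between Psmb9 and Psmb8 did not differ between the groups beyond the spread (0.30, exact permutation p = 0.171, 2-sided). Of 4 other genes of the inducible proteasome and its activators, 0 passed, and Psme1, an activator subunit, had the largest change, -0.21 (SE 0.11, adjusted p = 0.252). Of the 3 constitutive catalytic subunits 0 passed, with changes of -0.11 to -0.09, the largest in Psmb5 (-0.11). Centring on the array median turned Psmb5 to 0.029. Relative to Psmb6, its constitutive counterpart, Psmb9 was higher in L-GMPs by 0.69, and relative to Psmb5, Psmb8 was higher by 0.40 (exact permutation p = 0.0286 for each, 2-sided).

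Within a group, the same array was often at an extreme over the members. GMP replicate A was the lowest GMP array in 14 of the 27 probe sets, and L-GMP replicate D was the highest L-GMP array in 14. The same count was not made over all probe sets, so it is not known to be particular to the members. The 27 include 9 H2-D1 and 4 H2-K1 probe sets, which may share signal. With GMP replicates A and D left out, chosen after seeing the data, 7 of 27 were called higher and 0 lower. Of all 45037 probe sets, 789 were then called higher and 1921 lower. With L-GMP B and GMP D both left out, 9 were called higher and 0 lower, beside 1168 higher and 2199 lower of all 45037.

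The background for the related lists is 11.2% of 18193 genes called, each by its brightest probe set, 4.33% higher and 6.87% lower. By that count 6 of the 10 members were higher, with a median change of 0.49 against 0.01 over all genes. Class II presentation genes had 3 higher and 0 lower of 13, with a median of -0.03. They were Ifi30, a lysosomal thiol reductase, which rose by 2.29 (SE 0.19, 4.90-fold), Ctss (cathepsin S), which rose by 1.69 (SE 0.16), and H2-DMa, a chain of the class II peptide editor, by 0.90 (SE 0.21, adjusted p = 0.022). The H2-DMa call ended when L-GMP A or GMP B was left out (0.0607 and 0.0666, and 0.0102 to 1 over all alternatives). The class II chain H2-Ab1 had a change of -0.14 (SE 0.26) and Cd74, the invariant chain, of -0.03 (SE 0.13), neither past the threshold. Both, like Ciita, were named after their values were seen.

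**Figure D4:**
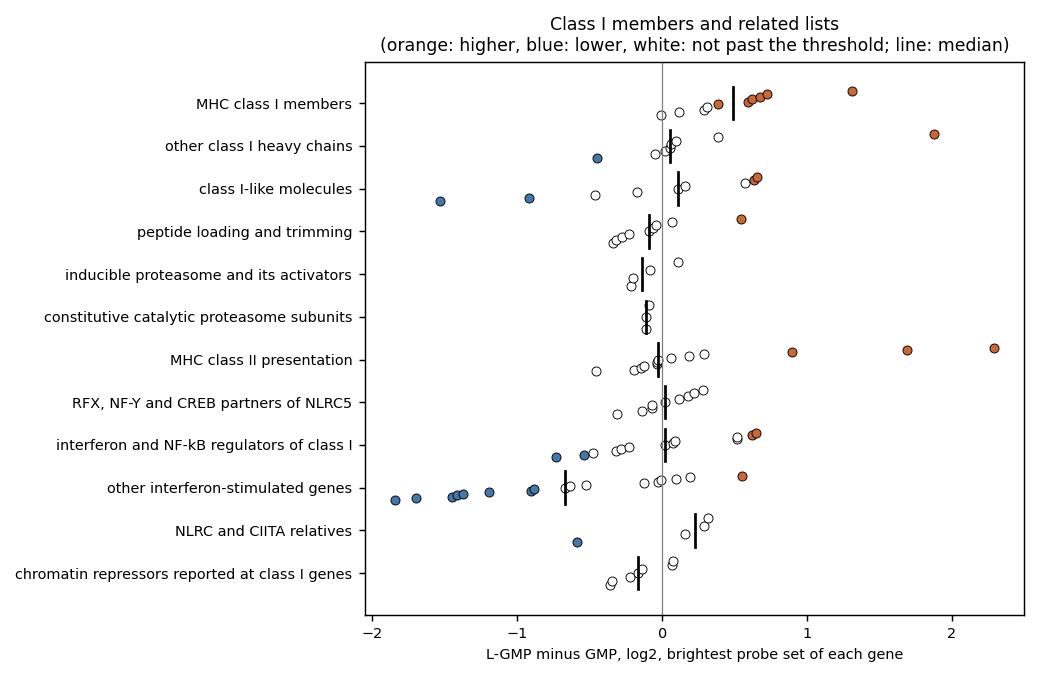
Log2 change (L-GMP minus GMP) of each measured gene, by list and by the brightest probe set of each gene; orange points were called higher, blue lower and white neither, and the line is the list's median. The members' median of 0.49 lies to the right of 0 and that of the other interferon-stimulated genes, -0.67, to the left.

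Of 17 measured interferon-stimulated genes other than the members, 8 fell (47.1% against 6.87% of all genes) and 1 rose, and the median change was -0.67 (between -0.996 and -0.529 under the alternatives). Rtp4 fell by 1.84 (SE 0.21, adjusted p = 0.000307), with L-GMPs at 3.93 to 4.02 and GMPs at 5.35 to 6.51. The Rtp4 change was -0.86 in the mean of its probe sets and -1.20 with log2(intensity + 16). The guanylate-binding protein gene Gbp2 read 4.60 ± 0.51 in L-GMPs and 6.30 ± 0.21 in GMPs (SD, n = 4 each) and fell by 1.70 (SE 0.23, adjusted p = 0.000979). Oasl2 fell by 1.41 (SE 0.17) and Usp18, a protease that removes ISG15, by 1.45 (SE 0.37, adjusted p = 0.031). With log2(intensity + 16) the Usp18 change was -0.73 and did not pass (0.0795). The call also ended when any 1 array other than L-GMP D or GMP A was left out (0.0931 at most, and 0.00214 to 0.613 over all alternatives). The 1 that rose was Gbp3, chosen after its values were seen, by 0.55 (SE 0.16, adjusted p = 0.0487). The Gbp3 call ended when any 1 array other than GMP B was left out (0.118 at most, and 0.00988 to 1 over all alternatives).

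Of 13 regulators of class I in the interferon and NF-kB pathways, 2 were higher and 2 lower, beside 4.33% and 6.87% of all genes. The receptor chains Ifnar1 and Ifngr1 rose by 0.65 (SE 0.16, adjusted p = 0.0298) and 0.62 (SE 0.17, adjusted p = 0.0401). The transcription factors Irf9 and Irf1 fell by 0.73 (SE 0.16, adjusted p = 0.0141) and 0.54 (SE 0.13, adjusted p = 0.0235). IRF1 is known to bind class I and Nlrc5 promoters. Except Irf9, each lost its call without GMP replicate B and several other single arrays, Ifnar1 without A or C of L-GMPs or B, C or D of GMPs, Ifngr1 without B, C or D of L-GMPs or A, B or C of GMPs, and Irf1 without A of L-GMPs or B, C or D of GMPs. Irf9 lost its call with GMP replicates A and D both left out (0.0698, and 0.00662 to 1 over all alternatives). Irf1 also lost it after centring (0.0572, and 0.00883 to 1 over all alternatives). Of 7 chromatin repressors reported at class I genes, 0 passed. Kdm1a, a histone demethylase, came closest at -0.36 (SE 0.11, adjusted p = 0.0551), and passed under 8 of 22 alternatives.

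Of 9 measured class I-like molecules, 2 rose and 2 fell, beside 4.33% of all genes called higher and 6.87% lower. Procr, the endothelial protein C receptor and a marker of stem cells, read 4.43 ± 0.34 in L-GMPs and 5.97 ± 0.16 in GMPs (SD, n = 4 each) and fell by 1.53 (SE 0.17, adjusted p = 0.000238). Mr1, which presents microbial metabolites, fell by 0.92 (SE 0.21, adjusted p = 0.0205), which did not hold when L-GMP A (0.0576) or GMP B (0.0597) was left out or under quantile normalization (0.053, and 0.00638 to 1 over all alternatives). Fcgrt, the neonatal Fc receptor, rose by 0.65 (SE 0.12, adjusted p = 0.00747), and Ulbp1, a ligand of the NK receptor NKG2D, by 0.63 (SE 0.11, adjusted p = 0.00558). With GMP replicates A and D both left out, Ulbp1 had an adjusted p of 0.0505 (0.00244 to 1 over all alternatives).

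Markers of cell types were measured beside the members, where 11.2% of all genes were called in either direction. In bulk RNA a change in the share of a cell type and a change in RNA per cell cannot be told apart. Of 6 measured macrophage and monocyte markers, 4 were higher and 1 lower in L-GMPs, and their summed linear intensity was 3288 to 6150 per L-GMP array against 2338 to 2836 per GMP array. None of the 6 lay below the lower quartile in both groups. The dendritic cell list had 1 of 7 higher, Flt3, also a receptor of progenitors, and sums of 965 to 2196 against 233 to 294. Flt3 alone read 10.16 in L-GMPs and 6.88 in GMPs on the log2 scale, and the other 6 were not called. B cell markers had 0 of 7 called, with sums of 462 to 800 against 467 to 546. T and NK cell markers had 1 of 6 lower, Nkg7, and sums of 154 to 260 against 1603 to 1994. Nkg7 read 5.85 in L-GMPs and 10.76 in GMPs on the log2 scale and made up most of the GMP sum. The other 5 were not called. Erythroid markers had 0 of 6 called, with 963 to 1259 against 1303 to 1622, and endothelial and stromal markers 1 higher and 1 lower of 8, with 501 to 627 against 474 to 518. Most of the erythroid sum came from Tfrc (9.96 in L-GMPs and 10.36 in GMPs on the log2 scale). Progenitor markers had 1 higher and 4 lower of 9, with sums of 25137 to 29835 against 36921 to 39307. The part of these shifts in the class I values was not tested.

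The genes closest to Nlrc5 in pattern over the 8 arrays were named by the root mean square difference of log2 values, each centred on its own mean, among 9086 genes brighter than the median, each by its brightest probe set. They were Tifa (0.22), a TRAF-binding adaptor, Fam174b (0.22), Mcm3ap (0.23), an mRNA export factor, Hgsnat (0.24), a lysosomal acetyltransferase, and Per1 (0.24), a clock gene. Their own changes were 1.09 to 1.19, beside 1.31 for Nlrc5. The group difference was not removed before ranking, so nearness here largely restates a change of like size. By the brightest probe set of each member, H2-M3 (0.38) and H2-D1 (0.42) were nearest to Nlrc5 and Tapbp (0.71) the furthest. Over all member probe sets H2-D1 1426324_at (0.22) was the nearest, as near as Tifa to 2 decimals, followed by H2-D1 1451683_x_at (0.28) and H2-K1 1451931_x_at (0.35).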

How the data were processed

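Total RNA was extracted with Trizol and column-cleaned, per the labels' protocols. Per the submitters' processing notes the deposited intensities were made with RMA (version not given in the sources used here), and their linear scale was read from the values. The labelling named in the labels is a sense-strand whole transcript assay, which does not match these 3′ probe sets, so the strand read is uncertain. No detection call or batch is given, and precision is limited by having 8 arrays.

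The deposited intensities of 45101 probe sets, 64 of them controls and not used, were put on a log2 scale. Of the others, 34945 had 1 symbol, 932 several and 9160 none. Entrez identifiers matched 34741 to RefSeq (GRCm38.p6), changing 0 symbols. The groups were compared in limma 3.58.1 (R 4.3.3; lmFit, eBayes, group only, 2-sided, Benjamini-Hochberg at 0.05) over all 45037 probe sets, since members are probe sets. Adjusted p-values in the text are limma's. Genes of lists are read by their brightest probe set. The fit was tested on simulated data with independent probe sets and changes larger than those of most members. Its power for changes of the members' size was not tested.

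Members and lists were chosen with earlier results of these data known. Named were all members, up to 4 called genes with the largest change per list (otherwise the 1 with the largest change) and the 5 genes nearest to Nlrc5. Alternatives were other scalings, filters on dim probe sets, a pseudocount of 16, gene-level features, other priors, array weights, a replicate block, limma's treat at a fold of 1.5, and each array left out. Unlike the rest, treat does not repeat the same test, since it asks for a change beyond that fold.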

Additional observations from a re-analysis of the deposited data

Results flagged for a closer look

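In 3 of 54 groups of 4 arrays (27 member probe sets in each of the 2 groups) a single array lay far from the other 3, where chance gives about 2.7. H2-M3 read 9.42 in GMP replicate A against 9.80 to 9.81 on the other GMP arrays. H2-K1 probe set 1451931_x_at read 12.15 in L-GMP replicate D against 11.94 to 11.95. H2-D1 probe set 1425545_x_at read 11.56 in GMP replicate C against 11.46 to 11.47. Leaving out these single arrays ended none of these 3 calls.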

How the results depend on the processing

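The direction of the 12 called member probe sets was kept under all alternatives run. Against 12 calls, the members had 6 with 1 probe set a gene or with probe sets averaged per gene, 1 under treat at a fold of 1.5, and 7 without GMP replicates A and D together. Leaving out 1 array gave 8 to 11. Over all probe sets the count of 4921 became 2193 and 2569 under the gene-level features, 2321 without a prior, 741 under treat, 2710 without GMP replicates A and D, and 2972 to 5334 without 1 array, the lowest without GMP replicate B and 3244 without GMP replicate D. The 24 list genes became 15 without a prior, 7 under treat and 17 to 24 without 1 array. With the replicate block 9 members, 4077 probe sets and 23 list genes were called. No source used here says what arrays of the same letter share. Same-letter deviations correlated at -0.0702 to 0.103, and only D correlated best with its own letter, which cannot settle whether letters were paired. Tapbp probe set 1421812_at, at -0.01, turned to 0.13 after centring, 0.10 in the mean of its probe sets, 0.016 with array weights, and -0.057 to 0.049 without 1 array (0.0037 without L-GMP replicate A, 0.034 without C, 0.020 without GMP replicate A, 0.049 without C). Psmb5 turned to 0.029 after centring, and Tap1 probe set 1420274_at to -0.0016 without GMP replicates A and D. The share of calls that were higher was 35.6%, against 65.9% after centring (15 members) and 46.8% after quantile normalization (12 members). Centring moved the median change of all probe sets to 0.14 and that of the members to 0.45. The causes were not tested.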
